A study of Mus musculus with 21 samples.

Results

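De novo lipogenesis, the making of fatty acids from acetyl-CoA, was followed through 9 genes on microarrays of 3T3-L1 adipocytes. The genes encode 6 enzymes (Fasn, Acaca, Acacb, Acly, Acss2 and Me1) and 3 regulators (Thrsp, Mlxipl and Srebf1). They were found by gene symbol in the platform annotation, and each gene was read from its probe set with the highest mean over all arrays. They are 9 of the 18194 genes with a probe set of a single gene, and 8 of them were among the 12156 genes bright enough to be tested. 3T3-L1 is an established mouse preadipocyte line, and per the labels the cells had been differentiated in culture for 14 days. The treated groups received dexamethasone (Dex, a synthetic glucocorticoid, 20 nM) for 2 h, 24 h or 6 d, or the inflammatory cytokine tumour necrosis factor alpha (TNF) at the same times, and the control was taken at 0 h. The TNF dose and any vehicle are not given in the sources used here. Each of the 7 groups held 3 arrays, labelled as biological replicates. There was 1 control for all times, so the treatment and the time in culture cannot be told apart in comparisons with it.

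In this pathway ATP citrate lyase (Acly) cuts citrate exported from mitochondria into acetyl-CoA, and acetyl-CoA synthetase 2 (Acss2) makes acetyl-CoA from acetate. The acetyl-CoA carboxylases (Acaca and Acacb) turn it into malonyl-CoA, which fatty acid synthase (Fasn) extends into palmitate with NADPH, part of which malic enzyme 1 (Me1) provides. Srebf1 encodes SREBP-1 and Mlxipl encodes ChREBP, transcription factors that respond to insulin and to carbohydrate and that drive lipogenic genes in liver and fat. Thrsp (Spot 14) is a small nuclear protein of lipogenic tissues whose level follows lipogenesis. TNF is known to repress lipogenic genes in cultured adipocytes.

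The windows of 250 bases before the annotated start were matched for 9 of 9 members in RefSeq sequence (GRCm38.p6), 13 windows in all. The windows of Fasn and Thrsp, which were lowest after 24 h of TNF, and of Acly and Acss2, which were lowest after 6 d of Dex once an outlying array was set aside, are shown 5′ to 3′ on the gene's strand. Capitals mark the CCAAT box (CCAAT, or ATTGG on the other strand) and the GC box (GGGCGG, or CCGCCC).
Fasn, chr11:120824548-120824797, minus strand: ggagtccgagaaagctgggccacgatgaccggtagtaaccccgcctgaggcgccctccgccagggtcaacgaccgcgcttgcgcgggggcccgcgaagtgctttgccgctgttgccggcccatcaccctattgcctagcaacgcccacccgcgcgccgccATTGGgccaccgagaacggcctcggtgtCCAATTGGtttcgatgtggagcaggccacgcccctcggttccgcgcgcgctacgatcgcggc
Thrsp, chr7:97417551-97417800, minus strand: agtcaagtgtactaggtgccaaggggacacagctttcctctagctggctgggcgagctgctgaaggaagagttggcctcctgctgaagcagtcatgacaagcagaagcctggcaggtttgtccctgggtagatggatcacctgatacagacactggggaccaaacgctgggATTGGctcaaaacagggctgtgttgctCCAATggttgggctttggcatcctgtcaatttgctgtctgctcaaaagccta
Acly, chr11:100528001-100528250, minus strand: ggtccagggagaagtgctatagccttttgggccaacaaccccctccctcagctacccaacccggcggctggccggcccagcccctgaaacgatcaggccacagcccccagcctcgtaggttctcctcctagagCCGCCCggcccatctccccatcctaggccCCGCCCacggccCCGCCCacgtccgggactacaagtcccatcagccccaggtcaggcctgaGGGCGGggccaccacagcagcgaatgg
Acss2, chr2:155517793-155518042, plus strand: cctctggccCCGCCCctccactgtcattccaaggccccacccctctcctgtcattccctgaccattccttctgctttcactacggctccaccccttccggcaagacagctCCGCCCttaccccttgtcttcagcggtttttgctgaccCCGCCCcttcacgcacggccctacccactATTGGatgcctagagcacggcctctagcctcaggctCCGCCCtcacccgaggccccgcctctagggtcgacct
The Fasn window held 3 CCAAT matches, at 90, 62 and 59 bases before the start, of which those at 62 and 59 overlap on opposite strands, and no GC box. The Thrsp window held 2 CCAAT matches, at 79 and 52 bases, and no GC box. The Acly window held 4 GC boxes and no CCAAT match, and the Acss2 window held 4 GC boxes and 1 CCAAT match. A CCAAT match was present in 33.8% and a GC box in 32.7% of all 32851 windows of the table, so either is common. The sterol regulatory element spelled TCACNCCAC and the E-box CACGTG, searched on both strands, were each found in 1 member window, in both cases of Mlxipl, against 1.05% and 6.02% of all windows. A glucocorticoid receptor half-site AGAACA was found for 2 members (16.1% of all windows) and a nuclear receptor half-site AGGTCA for 1 member (14%). These matches describe letters, and binding was not measured.

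The deposited values were on a log2 scale, on which a difference of 1 is a doubling, and a level on this scale was not set against the level of another gene. The second array of TNF 6 d differed from the rest. Over probe sets its SD was 2.04, where the remaining 20 arrays had 2.44 to 2.51. Its lowest correlation with a group mate was 0.842. For the other arrays this was 0.978 to 0.997, taken without the outlying array among the mates. Its control probe sets read 2.00 higher at the 3′ than at the 5′ end, a sign of RNA quality, against at most 0.777 elsewhere. Results are therefore given with all 21 arrays, and values without this array stand beside many of them. The array is part of the residual spread shared by all groups, so leaving it out also narrows the errors of comparisons that do not hold it. In bulk samples such as these, fewer cells of a type and less RNA per cell cannot be told apart. The adipocyte markers found on the array (9 of 10 listed) averaged 11.7 to 13.2 on every array. Among 6 macrophage markers, Adgre1, Ptprc and Itgam were on all 21 arrays below 5.34. This is the median of the deposited values and the threshold used for a measured level. The other macrophage markers went the other way, Cd14 and Csf1r lying above it on all 21 arrays and Cd68 on 10.

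Against control, members were called lower after 6 d of Dex and after 24 h and 6 d of TNF. After 2 h none of the 8 tested members was called under Dex or under TNF (limma, Benjamini-Hochberg adjusted p under 0.05 over all genes tested), where 2.48% and 3.82% of all tested genes were called. After 24 h no member was called lower under Dex and 3 were under TNF (Fasn, Me1 and Thrsp). Of all tested genes 4.18% and 8.69% were called. After 6 d, 2 members were called lower under Dex (Acss2 and Me1) and 3 under TNF (Fasn, Me1 and Thrsp). Of all tested genes 8.3% and 15.2% were called. No member was called higher in any of these 6 comparisons. By direction, the shares of all tested genes called higher and lower under Dex were 1.66% and 0.814% at 2 h, 2.06% and 2.11% at 24 h, and 3.22% and 5.08% at 6 d. Under TNF they were 2.95% and 0.872% at 2 h, 5.41% and 3.27% at 24 h, and 4.52% and 10.7% at 6 d.

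Without TNF 6 d replicate 2, more members were called, as were more genes in general. The count was 0 after 2 h of Dex (7.12% of all tested genes) and 0 after 2 h of TNF (10.7%). It was 4 after 24 h of Dex (13.2%), of which Acly, Acss2 and Me1 were lower and Thrsp higher, and 5 after 6 d of Dex (24%), of which Acly, Acss2, Fasn and Me1 were lower and Srebf1 higher. It was 5 after 24 h of TNF (25.6%), of which Fasn, Thrsp, Me1 and Acss2 were lower and Acacb higher, and 4 after 6 d of TNF (20.5%), namely Fasn, Acaca, Me1 and Thrsp, all lower. The median log2 change of the 8 tested members was -0.43 after 6 d of Dex, -0.55 after 24 h of TNF and -0.53 after 6 d of TNF, beside -0.02, -0.03 and -0.23 over all tested genes. The last of these values was -0.05 without the outlying array, where the members' median was -0.66.

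**Figure D1:**
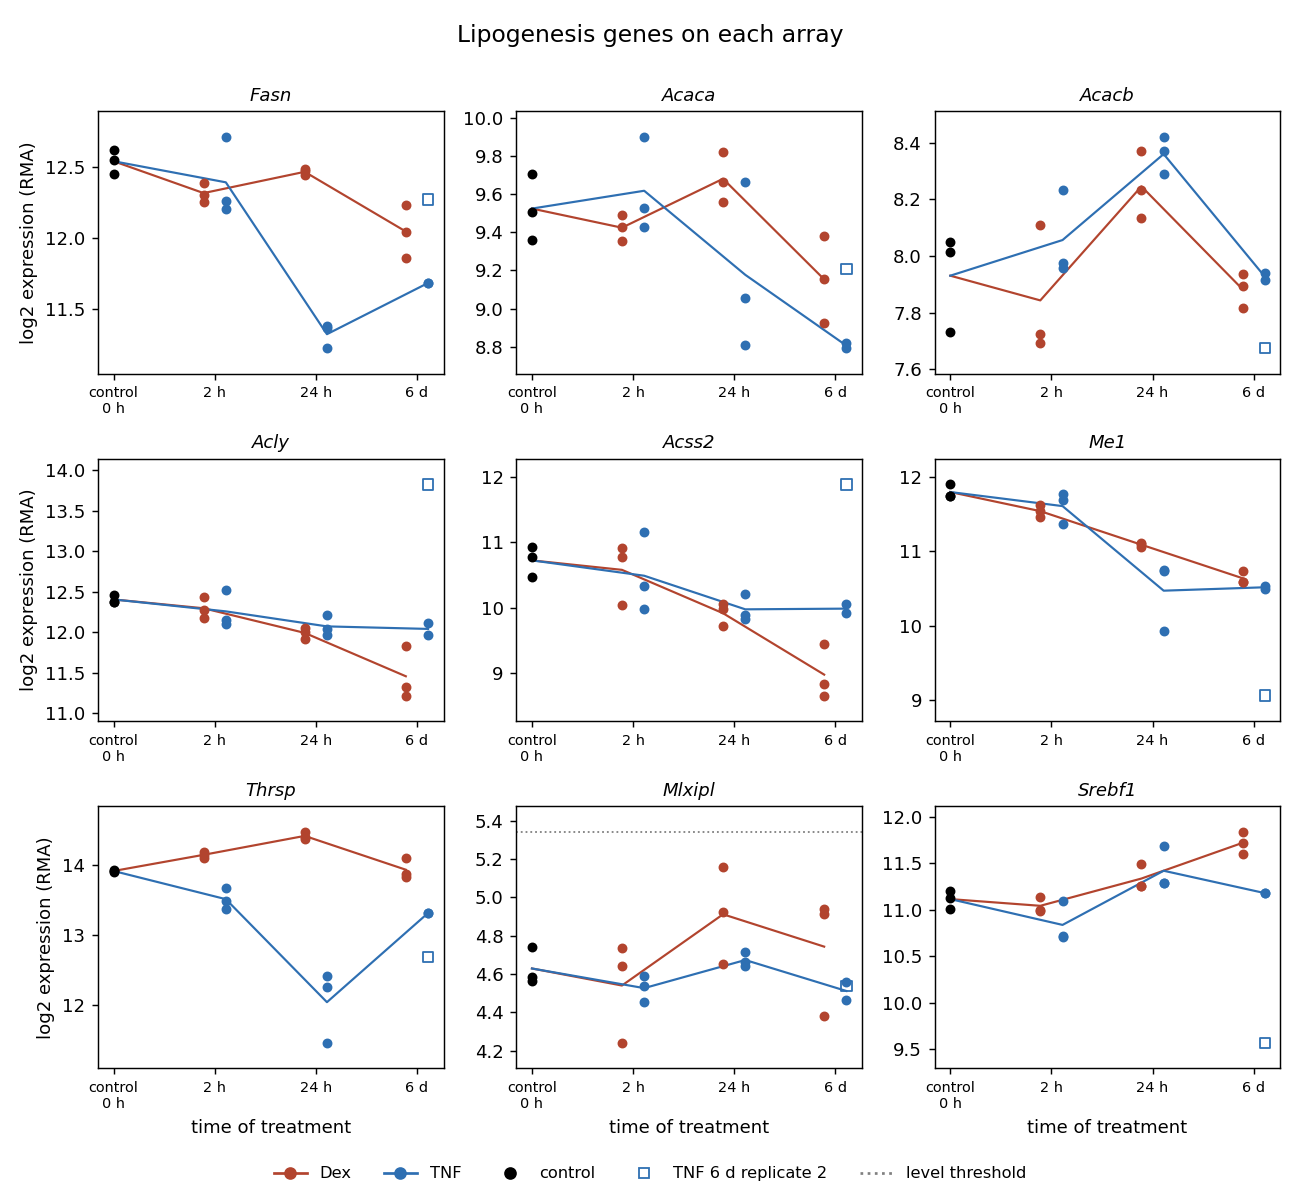
Log2 expression (y axis) of the 9 lipogenesis genes on each of the 21 arrays, by time of treatment (x axis, not to scale), with 1 point per array, Dex in red, TNF in blue and control in black. Lines join group means without TNF 6 d replicate 2, which is drawn as an open square, and each panel has its own y range. Fasn and Thrsp dip at TNF 24 h, the lines of Acly and Acss2 are lowest at Dex 6 d, and the open square lies far above its group mates for Acly and Acss2 and far below them for Me1 and Srebf1.

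Fasn, whose protein carries out the chain synthesis itself, was lower after 24 h and 6 d of TNF. It read 12.45, 12.62 and 12.55 on the control arrays, then 12.39, 12.25 and 12.30 after 2 h of Dex, 12.44, 12.47 and 12.48 after 24 h and 11.86, 12.23 and 12.04 after 6 d. Under TNF it read 12.26, 12.71 and 12.20 after 2 h, 11.37, 11.38 and 11.23 after 24 h and 11.68, 12.27 and 11.69 after 6 d. All arrays of 24 h and 6 d of TNF and of 6 d of Dex lay below every control array, as did those of 2 h of Dex, while those of 24 h of Dex overlapped the control. The change was -1.21 ± 0.16 (log2, SE) after 24 h of TNF, a 2.32-fold lower level (adjusted p = 4.08e-05), and -0.66 ± 0.16 after 6 d (adjusted p = 0.0114), or -0.85 ± 0.13 without replicate 2 of that group (adjusted p = 4.29e-05). Without control replicate 2 the 6 d call was lost (adjusted p = 0.0505). After 6 d of Dex the difference was -0.49 ± 0.16 and was not called (adjusted p = 0.0746), although it was without TNF 6 d replicate 2 (-0.49 ± 0.11, adjusted p = 0.00251). In the order of group means, control, Dex 24 h, TNF 2 h and Dex 2 h overlapped their neighbours, and Dex 6 d, TNF 6 d and TNF 24 h followed, each below the one before it with no overlap when the outlying array was left out.

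Thrsp, the Spot 14 protein, had the widest range of group means of the 8 tested genes, 5.19-fold between Dex 24 h and TNF 24 h. It read 13.93, 13.91 and 13.91 on the control arrays, then 14.10, 14.15 and 14.19 after 2 h of Dex, 14.37, 14.41 and 14.48 after 24 h and 13.88, 13.83 and 14.10 after 6 d. With TNF it read 13.68, 13.37 and 13.49 after 2 h, 12.26, 12.41 and 11.46 after 24 h and 13.31, 12.69 and 13.32 after 6 d. Every TNF array lay below every control array at all 3 times, and every Dex array lay above them at 2 h and 24 h. Thrsp differed from control by -1.87 ± 0.19 after 24 h of TNF, at 27.3% of control (adjusted p = 1.96e-06). The difference was -0.81 ± 0.19 after 6 d of TNF (adjusted p = 0.00952), or -0.60 ± 0.17 without replicate 2 of that group (adjusted p = 0.0159). After 24 h of Dex it was 0.50 ± 0.19 higher, which was not called (adjusted p = 0.24) but was without TNF 6 d replicate 2 (0.50 ± 0.15, adjusted p = 0.0348). After 6 d of Dex the difference from control was 0.02 ± 0.19, with a 95% interval of -0.39 to 0.43.

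The carboxylases, which make the malonyl-CoA that Fasn uses, were among the members with the smallest changes in the fit of all arrays. Acaca, the cytosolic form that serves lipogenesis, read 9.36, 9.51 and 9.71 on the control arrays, then 9.43, 9.35 and 9.49 after 2 h of Dex, 9.56, 9.66 and 9.82 after 24 h and 8.93, 9.38 and 9.16 after 6 d. On the TNF arrays it read 9.43, 9.90 and 9.53 after 2 h, 9.06, 8.81 and 9.66 after 24 h and 8.79, 9.21 and 8.82 after 6 d. Only the TNF 6 d arrays lay wholly below control, at a difference of -0.58 ± 0.21, which was not called (adjusted p = 0.066) but was without replicate 2 of that group (-0.72 ± 0.20, adjusted p = 0.012). Its TNF 24 h arrays spread by an SD of 0.44, with replicate 3 the highest. Apart from this array and replicate 2 of Dex 6 d, the arrays of both groups also lay below every control array. Acaca was called lower in both groups in a fit below without these and other arrays set apart by RNA quality. Acacb, the form at the mitochondrial surface whose malonyl-CoA restrains fatty acid oxidation, read 7.73, 8.01 and 8.05 on the control arrays, then 7.73, 7.69 and 8.11 after 2 h of Dex, 8.23, 8.37 and 8.13 after 24 h and 7.82, 7.94 and 7.89 after 6 d. Under TNF it read 7.98, 8.23 and 7.96, 8.37, 8.29 and 8.42 and 7.94, 7.67 and 7.92 at the same times. It was highest at 24 h under both agents, above every control array, by 0.31 ± 0.15 under Dex (adjusted p = 0.44) and 0.43 ± 0.15 under TNF (adjusted p = 0.0937). The TNF value was called without TNF 6 d replicate 2 (adjusted p = 0.0153), and the Dex value was not (adjusted p = 0.116).

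The enzymes that supply acetyl-CoA reached their lowest levels after 6 d of Dex. Acly read 12.38, 12.46 and 12.38 on the control arrays, then 12.44, 12.28 and 12.17 after 2 h of Dex, 12.00, 12.06 and 11.92 after 24 h and 11.33, 11.83 and 11.22 after 6 d. On the TNF arrays Acly read 12.10, 12.53 and 12.15 after 2 h, 11.96, 12.05 and 12.21 after 24 h and 11.97, 13.83 and 12.11 after 6 d. The arrays of 24 h and 6 d of Dex and of 24 h of TNF all lay below control, and the TNF 6 d group overlapped it through the 13.83 of its replicate 2. After 6 d of Dex the difference was -0.95 ± 0.32, 1.93-fold lower, which was not called (adjusted p = 0.0835) but was without TNF 6 d replicate 2 (-0.95 ± 0.13, adjusted p = 1.83e-05). Under 6 d of TNF it was 0.23 ± 0.32 with all arrays and -0.36 ± 0.15 without replicate 2, called in neither (adjusted p = 0.607 and 0.0946).

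Acss2 ran like Acly with larger differences. It read 10.78, 10.92 and 10.47 on the control arrays, then 10.91, 10.78 and 10.05 after 2 h of Dex, 9.98, 10.06 and 9.71 after 24 h and 8.83, 9.45 and 8.66 after 6 d. Under TNF it read 10.33, 11.15 and 9.98 after 2 h, 9.89, 10.21 and 9.82 after 24 h and 9.91, 11.89 and 10.06 after 6 d. The arrays of 24 h and 6 d of Dex lay below every control array, as did those of 24 h of TNF. Acss2 differed from control by -1.74 ± 0.41 after 6 d of Dex, at 29.9% of control (adjusted p = 0.00972). This call was lost without Dex 6 d replicate 3 (adjusted p = 0.0550). At 24 h it was -0.81 ± 0.41 under Dex and -0.75 ± 0.41 under TNF on this probe set, called without TNF 6 d replicate 2 (adjusted p = 0.0423 and 0.0372) and not with all arrays (0.501 and 0.363). The other passing probe set of Acss2 was called at TNF 24 h with all arrays (-1.17 ± 0.25, adjusted p = 0.00519). In the order of group means without that array, Dex 6 d lay below all other groups with no overlap for both Acly and Acss2, and the other groups overlapped their neighbours.

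Me1, a source of cytosolic NADPH, lay below its control level after 24 h and 6 d of both agents. It read 11.74, 11.74 and 11.90 on the control arrays, then 11.54, 11.62 and 11.45 after 2 h of Dex, 11.09, 11.06 and 11.11 after 24 h and 10.74, 10.59 and 10.59 after 6 d. With TNF, Me1 read 11.69, 11.76 and 11.36 after 2 h, 10.74, 10.75 and 9.92 after 24 h and 10.53, 9.06 and 10.50 after 6 d. All arrays of 24 h and 6 d under both agents and of 2 h of Dex lay below control, and in the TNF groups of 24 h and 6 d 1 array lay well below its mates. Me1 differed from control by -1.16 ± 0.29 after 6 d of Dex, 2.23-fold lower (adjusted p = 0.0162). This call was lost without control replicate 3 (adjusted p = 0.0623), Dex 6 d replicate 2 (0.0575) or Dex 6 d replicate 3 (0.0595). The difference was -1.32 ± 0.29 after 24 h of TNF (adjusted p = 0.00551) and -1.76 ± 0.29 after 6 d of TNF (adjusted p = 7.12e-04), or -1.28 ± 0.17 without replicate 2 of that group. At 24 h of Dex the difference was -0.71 ± 0.29, called only without TNF 6 d replicate 2 (adjusted p = 0.00341, against 0.3 with all arrays).

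Srebf1, which encodes the SREBP-1 factors, lay above its control level after 24 h of both agents and 6 d of Dex, where several enzymes lay below theirs. It read 11.13, 11.20 and 11.01 on the control arrays, then 11.14, 10.99 and 11.00 after 2 h of Dex, 11.25, 11.26 and 11.49 after 24 h and 11.60, 11.84 and 11.72 after 6 d. Under TNF it read 10.71, 11.09 and 10.71 after 2 h, 11.29, 11.28 and 11.68 after 24 h and 11.18, 9.56 and 11.18 after 6 d. The arrays of 24 h of both agents and of 6 d of Dex all lay above control. At 24 h the differences were 0.22 under Dex and 0.31 under TNF, called neither with all arrays nor without TNF 6 d replicate 2. The difference after 6 d of Dex was 0.61 ± 0.29, not called with all arrays (adjusted p = 0.295) but called without TNF 6 d replicate 2 (0.61 ± 0.12, 1.52-fold, adjusted p = 8.33e-04). The probe set does not tell the 1a and 1c transcripts apart, and the cleavage that activates the protein was not measured. Mlxipl, which encodes ChREBP, has 1 probe set, which stayed under that threshold of 5.34 on every one of the 21 arrays, between 4.24 and 5.16. It was not tested, and no direction can be read for it.

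**Figure D2:**
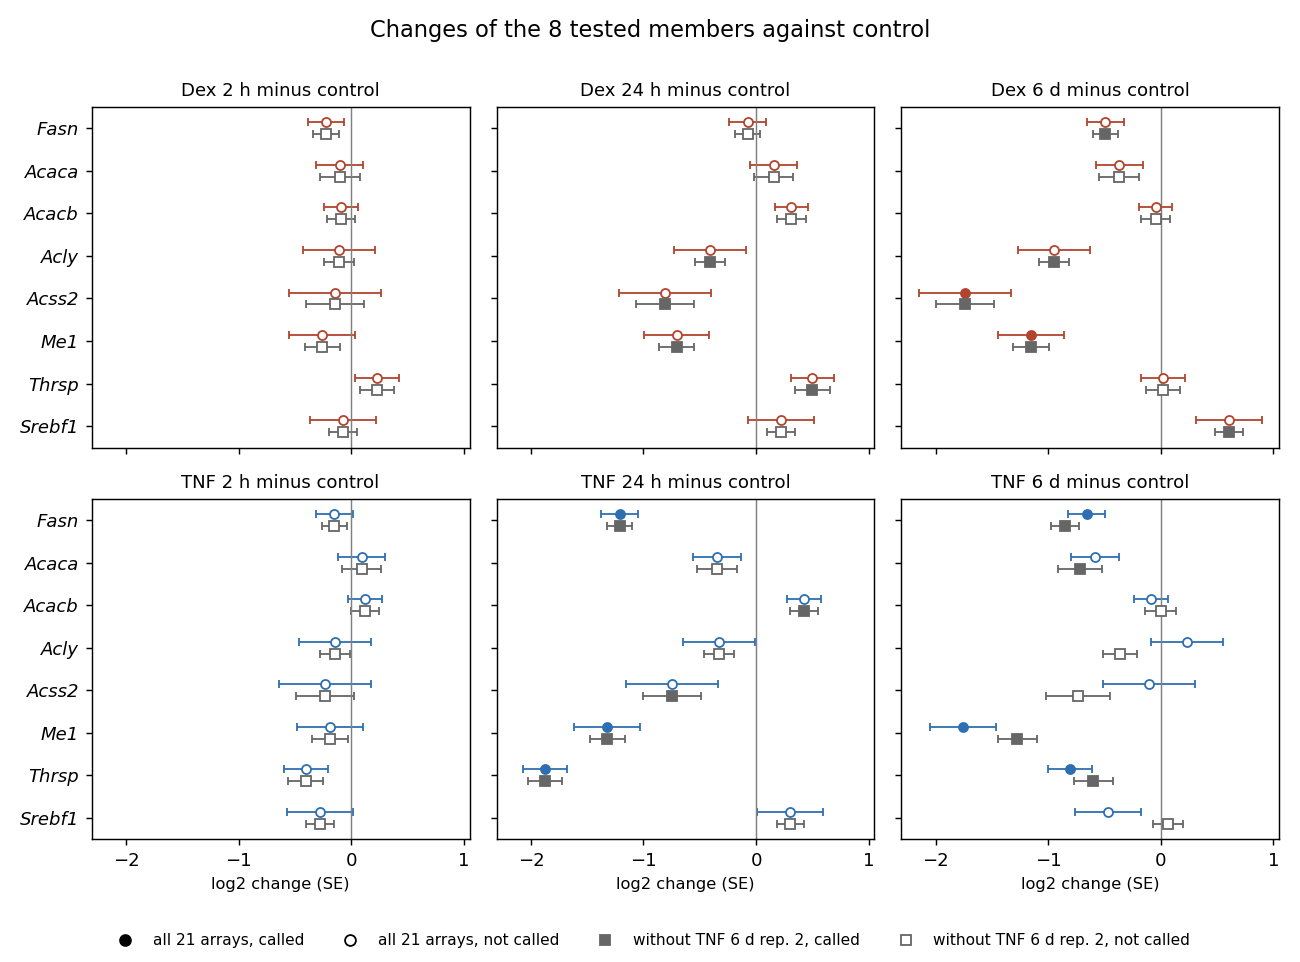
Log2 change against control (x axis, with SE) of the 8 tested genes (y axis) in the 6 comparisons with control, from the limma fit of all 21 arrays (circles, Dex in red and TNF in blue) and from the fit without TNF 6 d replicate 2 (grey squares), with called changes filled. Fasn, Thrsp and Me1 are filled at TNF 24 h and TNF 6 d, Acss2 and Me1 at Dex 6 d, and the fit without the array fills further members in the 24 h and 6 d panels.

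Dex and TNF were then compared with each other at matched times. The differences of means use no control array, while the control arrays are part of the residual spread behind the errors. At 2 h no member was called with all arrays (5.97% of all tested genes were called), and Thrsp alone was higher under Dex without TNF 6 d replicate 2 (0.63 ± 0.15, adjusted p = 0.00593), where 14.8% of all genes were called. At 24 h, 2 members were higher under Dex (13.5% of all genes called). Thrsp differed by 2.38 ± 0.19, 5.19-fold (adjusted p = 5.19e-08), and Fasn by 1.14 ± 0.16, 2.2-fold (adjusted p = 5.67e-05). Without the outlying array, Acaca (0.50 ± 0.18) and Me1 (0.62 ± 0.16) were called higher as well, 4 members in all, where 33% of all genes were called. Acly and Acss2 differed by -0.08 ± 0.32 (95% interval -0.75 to 0.59) and -0.06 ± 0.41 (-0.92 to 0.80) at that time.

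At 6 d, 4 members differed between the agents (23.7% of all genes called), in both directions. Acly (-1.18 ± 0.32) and Acss2 (-1.64 ± 0.41) were lower under Dex, while Srebf1 (1.08 ± 0.29) and Thrsp (0.83 ± 0.19) were higher. Without TNF 6 d replicate 2 the same 4 genes were called with smaller values, -0.58 ± 0.15, -1.01 ± 0.29, 0.54 ± 0.14 and 0.62 ± 0.17 in that order, and Fasn was called too (0.36 ± 0.13), where 30.1% of all genes were called. The calls of Acly without Dex 6 d replicate 1 (adjusted p = 0.0503) or 3 (0.0579) and of Srebf1 without Dex 6 d replicate 2 (0.0510) were lost. The difference between the agents itself differed between times for Fasn and Thrsp. It was larger at 24 h than at 2 h by 1.21 ± 0.23 for Fasn (adjusted p = 0.00299) and by 1.74 ± 0.27 for Thrsp (adjusted p = 5.61e-04).

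**Figure D3:**
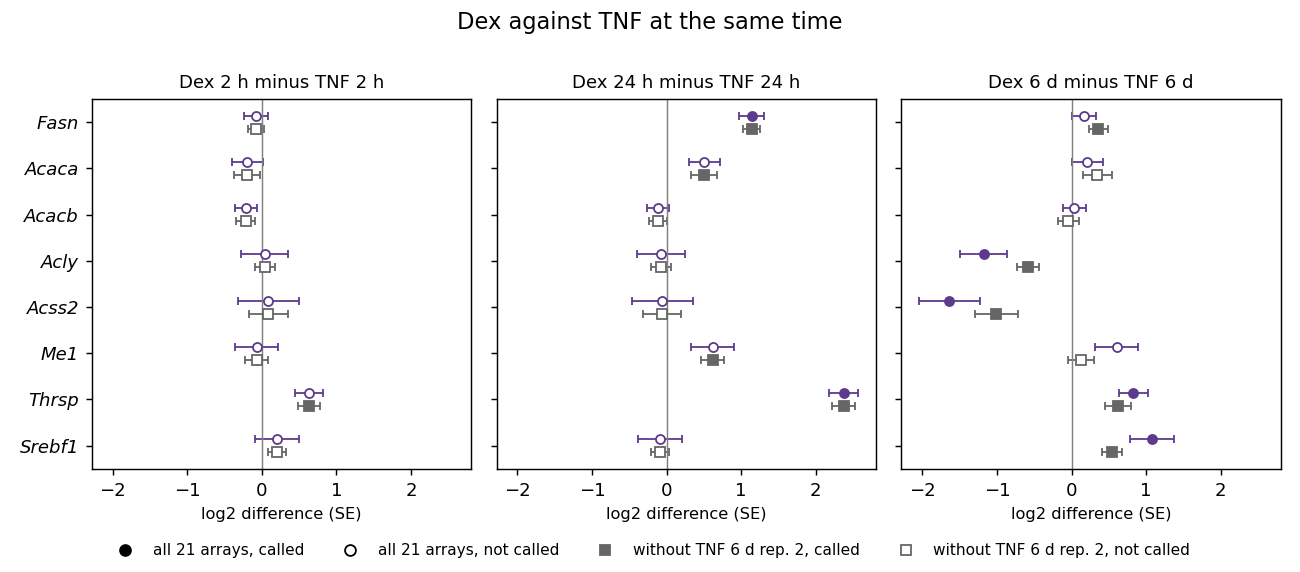
Log2 difference of Dex minus TNF (x axis, with SE) for the 8 tested genes (y axis) at 2 h, 24 h and 6 d, with all 21 arrays (purple circles) and without TNF 6 d replicate 2 (grey squares), called differences filled. Thrsp and Fasn lie to the right at 24 h, and at 6 d Acly and Acss2 lie to the left and Srebf1 and Thrsp to the right.

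Along the TNF course, 3 members were lower at 24 h than at 2 h (5.69% of all genes called). They were Thrsp (-1.47 ± 0.19, adjusted p = 6.11e-05), Fasn (-1.06 ± 0.16, adjusted p = 3.00e-04) and Me1 (-1.13 ± 0.29, adjusted p = 0.0248). The Me1 call was lost without TNF 24 h replicate 3 (adjusted p = 0.162) or TNF 2 h replicate 1 (0.0930) or 2 (0.0976). Without TNF 6 d replicate 2, Srebf1 was also called, higher by 0.58 ± 0.12 (22.1% of all genes called). At 6 d Thrsp was 1.07 ± 0.19 higher than at 24 h (adjusted p = 0.00251) and still below control. On its other passing probe sets this rise was not called with all arrays (0.75 and 0.81, limma adjusted p = 0.248 and 0.153). Acacb changed by -0.52 ± 0.15 (adjusted p = 0.0489), a call lost without any single array of TNF 24 h (adjusted p up to 0.142) and without TNF 6 d replicate 2 (0.0608). These 2 members stood beside 5.99% of all genes called, and the count was 1 (Thrsp, 1.27 ± 0.17) beside 9.2% without that array.

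Along the Dex course no member was called with all arrays, at 24 h against 2 h (3.62% of all genes called) or at 6 d against 24 h (0.683%). Without TNF 6 d replicate 2, Acacb was higher at 24 h than at 2 h (0.40 ± 0.13, adjusted p = 0.0377, with 13.5% of all genes called). In the same fit Acss2 (-0.94 ± 0.26), Acly (-0.54 ± 0.13) and Fasn (-0.42 ± 0.11) were lower at 6 d than at 24 h, where 4.5% of all genes were called.

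The members have 21 probe sets, of which 14 passed the level filter, and for 4 genes more than 1 passed. Passing probe sets of a gene are called the first (used), the second and the third here, by their mean over all arrays. The other probe sets of Acly and Acss2 parted from the ones used on the outlying array and in the TNF groups. On the TNF 6 d arrays the first Acly probe set read 11.97, 13.83 and 12.11, while the second read 11.82, 11.08 and 11.90 and the third 9.29, 8.38 and 9.28. For Acss2 the first probe set read 9.91, 11.89 and 10.06 and the second 9.90, 9.02 and 9.69. Replicate 2 was thus the highest of its group in the first probe sets and the lowest in the others. In a fit of all 24535 probe sets that passed, after 6 d of Dex Acly changed on the second and the third probe sets by -1.06 ± 0.18 (adjusted p = 9.31e-04) and -1.47 ± 0.30 (adjusted p = 0.00436), and Acss2 on the second by -1.94 ± 0.25 (adjusted p = 3.69e-05). At 24 h of TNF, with all arrays, the second Acly probe set was at -0.60 ± 0.18 and not called (adjusted p = 0.0604), and the third was called lower (-1.22 ± 0.30, adjusted p = 0.0173), as was the second of Acss2. Under TNF at 6 d, Acly was -0.75 ± 0.18 (adjusted p = 0.0136) and -1.06 ± 0.30 (adjusted p = 0.0316), and Acss2 -1.50 ± 0.25 (adjusted p = 9.14e-04), all called lower. With the outlying array left out these 3 values were -0.49 ± 0.13, -0.76 ± 0.28 and -1.24 ± 0.22, and the third Acly probe set was no longer called (adjusted p = 0.0762).

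On these probe sets, in the same order, the difference between Dex and TNF at 6 d was smaller. It was -0.30 ± 0.18 and -0.41 ± 0.30 for Acly (adjusted p = 0.241 and 0.336) and -0.45 ± 0.25 for Acss2 (adjusted p = 0.204), called in none. Without TNF 6 d replicate 2 it was called on the second of Acly (-0.57, adjusted p = 0.00247) and of Acss2 (-0.71, adjusted p = 0.0227), and not on the third of Acly (-0.71, adjusted p = 0.0746). For Me1, the second probe set was lower after 6 d of Dex (-0.83 ± 0.17, adjusted p = 0.00467), 24 h of TNF (-0.99 ± 0.17, adjusted p = 9.53e-04) and 6 d of TNF (-1.06 ± 0.17, adjusted p = 8.32e-04). For Thrsp, the second was lower after 24 h (-2.13 ± 0.41, adjusted p = 0.0022) and 6 d of TNF (-1.38 ± 0.41, adjusted p = 0.036). Its 6 d value was -0.67 ± 0.25 without replicate 2 of that group and was no longer called (adjusted p = 0.0754). The third and dim probe set of Thrsp was called in neither with all arrays (-0.69 ± 0.33 and 0.12 ± 0.33). On the TNF 6 d arrays it read 5.51, 7.49 and 5.78, and without replicate 2 both were called lower (-0.69 ± 0.15, adjusted p = 0.00211, and -0.49 ± 0.16, adjusted p = 0.0469). Its mean was 5.45 at TNF 24 h and 5.64 at TNF 6 d without replicate 2. Its fall from 2 h to 24 h of TNF was not called with all arrays (-0.22, limma adjusted p = 0.881). Under Dex the mean of Thrsp on the second and the third lay 1.01 and 0.42 above control at 24 h, against 0.50 on the first. At 2 h of Dex these differences were 0.46 and 0.44, against 0.23 on the first. Fasn, Acaca, Acacb and Srebf1 had 1 passing probe set each, so no second reading was to be had.

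**Figure D4:**
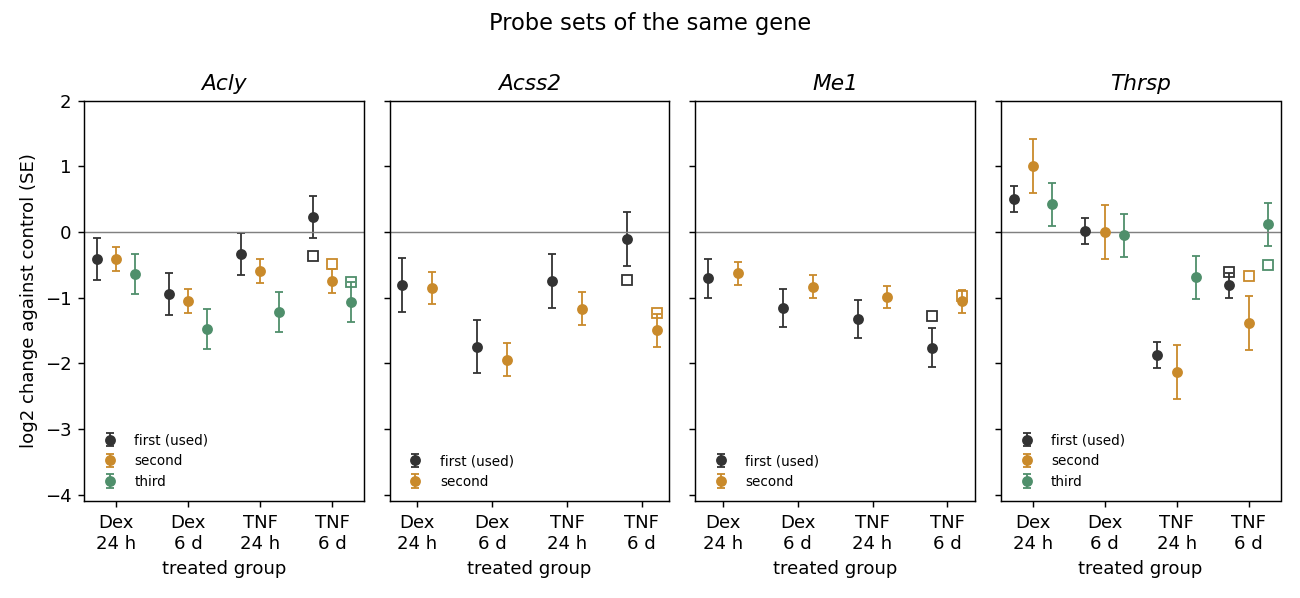
Log2 change against control (y axis, with SE) in 4 treated groups (x axis) for each passing probe set of Acly, Acss2, Me1 and Thrsp, in 1 colour per probe set, with open squares for TNF 6 d without replicate 2. At TNF 6 d the Acly probe set used reads 0.23, the second -0.75 and the third -1.06, and the squares of the 3 probe sets lie closer together.

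A sign of RNA quality moved with several members inside the groups. The 3′ minus 5′ difference was 0.683 to 2.00 on 4 arrays (replicate 2 of TNF 6 d, of Dex 6 d and of TNF 2 h, and replicate 3 of TNF 24 h) and 0.0210 to 0.283 on the other 17. On all 4 of these arrays Acaca and the Acly probe set used were the highest of their group, and Thrsp was the lowest. For Acaca they lay 0.34 to 0.73 above the mean of their group mates, and for Acly 0.21 to 1.78 above. Thrsp was at -0.88 to -0.16 from its mates. None of the 4 was a control or an array of the 2 earlier Dex times. The part of RNA quality in the changes was not tested. With all 4 arrays left out, the called genes named above for 24 h of TNF were still lower, Thrsp (-1.58), Fasn (-1.16) and Me1 (-1.05), and so were Acss2 (-1.98) and Me1 (-1.13) at Dex 6 d. Further members were called in that fit, as were more genes in general. Acaca was called lower after 24 h of TNF (-0.59, limma adjusted p = 7.42e-04), 6 d of Dex (-0.48, 0.00358) and 6 d of TNF (-0.72, 1.22e-04). With all arrays its differences were -0.35, -0.37 and -0.58 in that order, called in none. Acly was also called lower without these arrays after 24 h (-0.40, limma adjusted p = 6.38e-04) and 6 d of TNF (-0.36, 0.00143). After 2 h of TNF, Fasn, Acly, Me1, Thrsp and Srebf1 were called lower (-0.40 to -0.27, with 19.4% of all genes called). After 2 h of Dex, Fasn and Me1 were called lower and Thrsp higher (12.6%). The calls of Acaca, of Acly under TNF and of members at 2 h thus depend on these arrays.

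Markers of other cells and of the adipocyte state moved in the same comparisons (values are log2 changes against control, with SE). Of 9 tested adipocyte markers, 5 were called lower after 24 h of TNF, among them Cidec (-1.97 ± 0.41), Lipe (-1.27 ± 0.17) and Cebpa (-0.84 ± 0.24), and 5 after 6 d of TNF, among them Cidec (-1.98 ± 0.41), Pparg (-1.38 ± 0.35) and Lipe (-1.05 ± 0.17). With the outlying array left out these counts were 8 and 5, and the 6 d changes were -1.43 ± 0.34 for Cidec, -0.71 ± 0.13 for Pparg and -0.98 ± 0.16 for Lipe. The shares of all tested genes called lower after 24 h and 6 d of TNF were 3.27% and 10.7%, or 12.4% and 9.93% without that array. The mean of the list was 11.98 to 12.57 after 24 h of TNF and 11.73 to 12.52 after 6 d, against 13.04 to 13.09 in the control. None of the 9 was called after 24 h or 6 d of Dex with all arrays, and 1 was lower at each time without the outlying array. At 2 h Cebpa was lower under Dex (-1.16 ± 0.24). Pparg (-1.40 ± 0.35), Cebpa (-1.04 ± 0.24) and Lipe (-0.79 ± 0.17) were lower after 2 h of TNF, where 1 of the 9 was higher. Of 6 tested preadipocyte and fibroblast markers, 4 were lower after 6 d of Dex, among them Col1a1 (-2.44 ± 0.30) and Pdgfrb (-1.65 ± 0.17), 5 without the outlying array, and the list's mean was 8.78 to 9.07, against 9.84 to 10.10 in the control. The share of all tested genes called lower after 6 d of Dex was 5.08%, or 13.5% without that array. Pdgfrb was already lower after 2 h (-0.71 ± 0.17) and 24 h of Dex (-1.55 ± 0.17), and Col1a1 after 24 h (-1.13 ± 0.30). In the same list Pdgfra (1.13 ± 0.26 and 1.43 ± 0.26) and Pdgfrb (0.56 ± 0.17 and 0.75 ± 0.17) were higher after 24 h and 6 d of TNF, where the 6 d change of Pdgfra was 1.85 ± 0.16 without replicate 2. Of 3 tested macrophage markers, Cd14 and Cd68 were higher after 24 h of TNF (1.77 ± 0.41 and 1.57 ± 0.29), and the mean of all 6 was 5.63 to 5.83, against 5.01 to 5.15 in the control. Cd14 was also higher after 6 d of TNF (1.77 ± 0.41, or 2.51 ± 0.22 without replicate 2). The part of these shifts in the members' changes was not tested.

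Most tested genes that feed acetyl units into the pathway were called lower than control after 24 h and 6 d of TNF. Of 10 tested genes of acetyl-CoA and citrate supply, 6 were called lower and none higher after 24 h of TNF, among them Pdhb (-1.35 ± 0.23) and Dlat (-0.98 ± 0.19), subunits of the pyruvate dehydrogenase complex, and Slc2a4 (-1.14 ± 0.15), the insulin-responsive glucose transporter. Without the outlying array the count was 9, and the shares of all tested genes called lower or higher were 8.69% with all arrays and 25.6% without it. By 6 d of TNF 9 of the 10 were lower (8 without replicate 2), and the list's median change was -0.97, or -0.63 without replicate 2, beside -0.23 and -0.05 over all tested genes. Under Dex at 6 d, 2 were lower, Slc2a1 (-1.26 ± 0.35) and Slc2a4 (-0.76 ± 0.15), and Hk2, a hexokinase, was higher (0.53 ± 0.16). Without the outlying array 4 were higher and 3 lower, where 24% of all tested genes were called. Of 10 tested genes of NADPH supply, Taldo1 (-0.95 ± 0.26) and Tkt (-0.60 ± 0.12), enzymes of the pentose phosphate pathway, were lower after 24 h of TNF and Rpia, of the same pathway, was higher (0.63 ± 0.19). In this list H6pd was higher after 2 h (0.86 ± 0.21) and 24 h of Dex (0.82 ± 0.21), Rpia was lower after 6 d of Dex (-0.76 ± 0.19), and Taldo1 (-1.30 ± 0.26), Me2 (-0.71 ± 0.14) and Idh1 (-0.57 ± 0.16) were lower after 6 d of TNF. Without replicate 2 of TNF 6 d these 3 were -0.85 ± 0.14, -0.64 ± 0.13 and -0.29 ± 0.08, all still called. In that fit the list had 2 higher and 2 lower after 6 d of Dex, 1 higher and 4 lower after 24 h of TNF, and 1 higher and 5 lower after 6 d of TNF. Over all tested genes the shares higher and lower were 10.4% and 13.5%, 13.2% and 12.4%, and 10.5% and 9.93% in that order.

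Downstream of palmitate, 3 of 9 tested genes of desaturation and elongation were called lower after 6 d of Dex, and 7 without the outlying array, beside 5.08% of all tested genes called lower with all arrays and 24% called in either direction without it. The 3 included the desaturase Fads2 (-2.08 ± 0.19, adjusted p = 7.16e-07) and the elongase Elovl6 (-1.93 ± 0.50, adjusted p = 0.0179), while Scd3 was higher (1.29 ± 0.39). After TNF, Scd1 was lower at 24 h (-0.30 ± 0.09) and 6 d (-0.43 ± 0.09), and Scd2 at 6 d (-0.87 ± 0.21). Without the outlying array the 6 d values were -0.31 ± 0.06 for Scd1 and -0.55 ± 0.15 for Scd2. The list then had 3 higher and 2 lower after 24 h of TNF, against 0 higher and 1 lower with all arrays, and 2 higher and 2 lower after 6 d of TNF, against 0 higher and 2 lower. Of 13 tested genes that control SREBP, LXR or ChREBP, 2 were called after 6 d of Dex, and 5 (3 higher and 2 lower) without the outlying array. These counts stood beside 8.3% and 24% of all tested genes called. Insig1, which retains SREBP in the endoplasmic reticulum and is itself a target of SREBP, was lower (-1.41 ± 0.17, adjusted p = 1.95e-05), and Rxra, the partner receptor of LXR, was higher at 6 d (0.61 ± 0.13) as at 2 h (0.58 ± 0.13) and 24 h (0.77 ± 0.13). None of the 13 was called under TNF at any time with all arrays, while 4, 3 and 1 were called after 2 h, 24 h and 6 d of TNF without the outlying array, where 10.7%, 25.6% and 20.5% of all tested genes were called. Of 10 tested genes of AMPK and malonyl-CoA control, Prkab2, a regulatory AMPK subunit, was higher after 2 h, 24 h and 6 d of Dex (0.91 ± 0.21, 1.48 ± 0.21 and 1.96 ± 0.21) and after 2 h of TNF (1.08 ± 0.21). Cpt1a, which admits fatty acids to mitochondria, was lower after 24 h of Dex (-0.81 ± 0.16), and Mlycd, which breaks down malonyl-CoA, was called lower after 6 d of TNF (adjusted p = 0.0016), at -0.76 ± 0.14 without replicate 2 of that group.

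Over the 7 group means, taken without TNF 6 d replicate 2, likeness between members is given as a description, since all members were read on the same arrays. Acly and Acss2 had a Pearson r of 0.994 with each other, and Srebf1 ran opposite to both (-0.863 and -0.888). Fasn had an r of 0.861 with Thrsp and 0.852 with Me1. With Acly, r was 0.313 for Fasn and -0.035 for Thrsp. Me1 ran with both sets, at 0.695 with Acly, 0.759 with Acss2, -0.705 with Srebf1 and 0.53 with Thrsp. The 5 genes outside the members whose 7 group means were most like the members' mean profile with all arrays were Slc35b2 (r = 0.991), Chid1 (0.990), Sardh (0.985), Fcgrt (0.984) and Dgat1 (0.982), the last of which makes triglyceride. Without the outlying array these values were 0.832, 0.696, 0.959, 0.825 and 0.984 in the same order. For single members the most alike genes with all arrays were Scamp3 (Fasn, 0.996), Got1 (Acaca, 0.968), Adgrb1 (Acacb, 0.964), Dcn (Acly, 0.988), Lum (Acss2, 0.995), Sytl1 (Me1, 0.991), 2310001K24Rik (Thrsp, 0.986) and Slc17a5 (Srebf1, 0.992). Without the outlying array these values were 0.680, 0.494, 0.970, 0.725, 0.868, 0.850, 0.833 and 0.932 in the same order.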

How the data were processed

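RNA of 21 cultures was hybridised to Affymetrix arrays. The authors deposited log2 expression values per probe set, made by RMA per the submitters' processing notes; the genome build is not given in the sources used here. They were used as deposited. A gene was read from its single-gene probe set with the highest mean, and entered the tests if 3 or more arrays exceeded 5.34 (the median over all values). Arrays were fitted in limma 3.58.1 (R 4.3.3) with a mean per group (14 residual degrees of freedom, 13 without TNF 6 d replicate 2) and eBayes with a trend. P-values are two-sided, adjusted by Benjamini-Hochberg over 12156 genes per comparison and called below 0.05; ± is the SE of that fit. An exact permutation test of 3 arrays against 3 could not go below p = 0.1. The number of arrays limits the precision, and p-values measure the spread between the labelled replicates. The fit was tested on simulated data. These were independent normal values with a gene's SD taken from the control arrays. They held no outlying array and no difference in RNA quality, so that setting was not tested.

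Named genes were all members, up to 3 called genes of each list with the largest change per comparison with control, and the genes most alike over group means. The members and lists were chosen with earlier results of these data known. Same-numbered replicates deviated together (every r over 0.1) in 2 of the 13 comparisons, those of Dex 24 h with control (0.233 to 0.447) and with TNF 24 h (0.207 to 0.270), and no label says that a number marks a shared batch. Alternatives were no level filter, the mean of a gene's probe sets, median centring, a replicate block, array weights, fits of only the groups compared and each array left out. Other probe sets, and leaving out together the 4 arrays of highest 3′ minus 5′ difference, were added after seeing the data. Promoter windows come from RefSeq (GRCm38.p6).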

Additional observations from a re-analysis of the deposited data

Results flagged for a closer look

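For 2 genes the difference between Dex and TNF itself differed between times, by limma contrasts over all arrays. For Fasn it was 1.21 ± 0.23 larger at 24 h than at 2 h (log2, SE, adjusted p = 0.00299), and at 6 d it changed by -0.97 ± 0.23 against 24 h (adjusted p = 0.0291). For Thrsp it was 1.74 ± 0.27 larger at 24 h than at 2 h (adjusted p = 5.61e-04), and at 6 d it changed by -1.55 ± 0.27 against 24 h (adjusted p = 0.00365). Without TNF 6 d replicate 2 all 4 contrasts were called, the 6 d values being -0.78 ± 0.17 for Fasn and -1.76 ± 0.23 for Thrsp. In that fit Me1 was also called at 24 h against 2 h (0.68 ± 0.22, adjusted p = 0.0359) and Srebf1 at 6 d against 24 h (0.62 ± 0.18, adjusted p = 0.0405).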

How the results depend on the processing

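The number of called members changed most often with array weights and with the 4 arrays of highest 3′ minus 5′ difference left out. Shares of all genes called in the same fit stand in brackets. With array weights it was 2 and 6 after 2 h of Dex and TNF against control (16.6% and 25.2%). It was 5 and 7 after 24 h (39.9% and 40.3%), and 6 and 6 after 6 d (39.4% and 42.2%). It was then 2 at 2 h (27.9%) and 4 at 24 h (52.1%) between Dex and TNF. It was 6 and 8 along the Dex course (33.9% and 22.4%), and 6 for TNF 24 h against 2 h (33.3%). The 4 arrays of highest 3′ minus 5′ difference were chosen after seeing the data. With them left out it was 3 and 5 after 2 h of Dex and TNF (12.6% and 19.4%). It was 5 and 7 after 24 h (23.3% and 30.4%), and 6 and 6 after 6 d (30.7% and 33.3%). It was then 2 at 2 h (23.1%) and 4 at 24 h (39%) between Dex and TNF. It was 6 and 7 along the Dex course (24.3% and 9.44%), and 5 for TNF 24 h against 2 h (24.2%). Both settings also move the fitted differences. With only the groups compared in the fit it was 1 after 2 h of Dex (7.19%) and 1 after 2 h of TNF (6.94%). It was 4 and 5 after 24 h and 6 d of Dex (15.3% and 19.9%), and 0 after 6 d of TNF (0.239%). Between Dex and TNF it was 1 at 2 h (13.4%) and 0 at 6 d (1.82%). It was 6 and 4 along the Dex course (24.1% and 4.9%), and 0 for TNF 6 d against 24 h (0.0165%). With the mean of a gene's probe sets it was 2 after 24 h of Dex (5.08%), and 5 after 24 h and 6 d of TNF (10.4% and 17.5%). It was 1 between Dex and TNF at 2 h (7.96%), and 1 for Dex 6 d against 24 h (0.821%). Without the level filter it was 1 for TNF 6 d against 24 h (3.25%). The cause of these shifts was not tested.

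Leaving out single arrays moved the counts as follows, with the shares of all genes called in brackets. It gave 0 to 4 called members after 24 h of Dex (2.44% to 13.2%) and 0 to 5 after 6 d of Dex (5.61% to 24%). After 24 h of TNF it gave 3 to 5 (6.21% to 25.6%), and after 6 d of TNF 2 to 4 (8.37% to 37.8%). Between Dex and TNF it gave 0 to 1 at 2 h (4.62% to 14.8%), 2 to 4 at 24 h (9.64% to 33%) and 3 to 5 at 6 d (14.9% to 40.8%). Along the Dex course it gave 0 to 1 (2.08% to 13.5%) and 0 to 3 (0.28% to 4.5%). Along the TNF course it gave 2 to 4 (3.92% to 22.1%) and 1 to 5 (3.18% to 31.5%). The replicate block gave 3 called members in place of 2 after 6 d of Dex (8.38% of all genes called), adding Fasn (adjusted p = 0.0442). For TNF 6 d against 24 h it added Fasn (0.0320) and lost Acacb (0.0561). It changed no other call of a member. Median centring lost Me1 for TNF 24 h against 2 h (adjusted p = 0.0664). Over 1510 gene-level alternatives, 6 turned the direction of a value called in at least 1 of the 2 settings, and 57 differed in sign with a call in neither. Acly after 6 d of TNF was -0.37 with array weights, -0.36 with the 4 arrays left out, -1.06 on the third probe set by mean level and -0.75 on the second, against 0.23. On the third probe set of Thrsp, TNF 6 d against control was 0.12 and Dex 6 d against TNF 6 d -0.17, with all arrays. With TNF 6 d replicate 2 left out they were -0.49 and 0.44, the directions of the probe set used. Signal over background limits Mlxipl, which gave no reading.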
